A study of Capra hircus with 3 samples.

Results

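Mural cells are the contractile cells that wrap blood vessels: pericytes lie on capillaries, and vascular smooth muscle cells on arterioles, arteries and veins. Here they were the 222 cells of an E60 library and the 64 cells of an E120 library, 286 of 20676 cells of fetal goat skin in all, that met a rule on 2 sets of genes. A cell was a member when it held at least 1 unique molecular identifier (UMI, 1 captured transcript) of at least 4 of the mural genes RGS5, MYH11, NOTCH3, KCNJ8, ABCC9, CNN1, HIGD1B, TAGLN and ACTA2. It also had to hold UMIs of fewer than 3 of the 8 endothelial genes PECAM1, CDH5, KDR, TIE1, TEK, EGFL7, ESAM and CLDN5. MCAM, a listed mural gene as well, was not analysed here.

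The study sequenced single cells from the back skin of Northern Shaanxi White Cashmere goat fetuses at embryonic days 60, 90 and 120, which its design text assigns to the induction, organogenesis and cytodifferentiation of the hair follicle. One droplet-based 3′ RNA library was made per stage from cells of at least 2 fetuses pooled, which leaves nothing to test between stages. The E60 cells came from whole skin opened with collagenase IV and a pipette. The E120 cells came from hair follicles picked from collagenase-treated skin and dissociated with TypLE Express. Wherever E120 is set against E60, stage, dissociation and library cannot be told apart.

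Growing vessels recruit mural cells through PDGF-B, which endothelial cells release and the mural receptor PDGFRB binds, and NOTCH3 signalling maintains their smooth muscle character. Mural cells build the vascular basement membrane with the endothelium, and they set vessel calibre through actin and myosin under the control of vasoactive receptors, cyclic GMP and potassium channels. RGS5 and HIGD1B are used as pericyte markers, and MYH11, CNN1, TAGLN and ACTA2 as markers of smooth muscle. ACTA2 is also made by dermal sheath cells, arrector pili muscle and activated fibroblasts, so it does not mark mural cells alone.

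The libraries held 6849 cells at E60, 6931 at E90 and 6896 at E120, against 19705 cells that the design text states for all 3. UMIs per cell started at 6269 in the E60 library, 3000 in that of E90 and 2475 in that of E120. Pairs of libraries shared 9 to 13 cell barcodes. A simulation-based caller marked 5.42% of E60 cells and 2.32% of E120 cells as doublets, and none at E90, where it did not work. All levels below are counts per 1000000 (CPM) of UMIs summed over the cells of a group. Values in brackets are exact 95% intervals, Poisson for sums and binomial for shares, and they cover counting error only.

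Members made up 3.24% (2.83 to 3.69) of the E60 cells and 0.928% (0.715 to 1.18) of the E120 cells. The same rule found 20 of 6931 cells at E90, 0.289% (0.176 to 0.445), a library with a median of 3714 UMIs per cell. With every cell thinned to 2000 UMIs the rule took 0.613% (0.442 to 0.828) of E60 cells and 0.479% (0.330 to 0.671) of E120 cells. E60 members had a median of 8998 UMIs against 8570 in the other E60 cells, whereas E120 members had 5630 against 13117. Thinned to 2000 UMIs each, a depth that every member reached, E60 members held a median of 763 genes and E120 members 819.

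The number of rule genes per cell fell off differently in the 2 libraries. At E60, among cells under the endothelial limit, 797 cells held 2 rule genes, 311 held 3, 129 held 4, 56 held 5 and 37 held 6 or more. At E120, 588 cells held 2, 59 held 3, 18 held 4, 27 held 5 and 19 held 6 or more. The E120 counts had a dip at 4 genes, while the E60 counts declined at every step across the threshold. The endothelial limit removed 6 cells at E60 and 1 at E120.

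**Figure D1:**
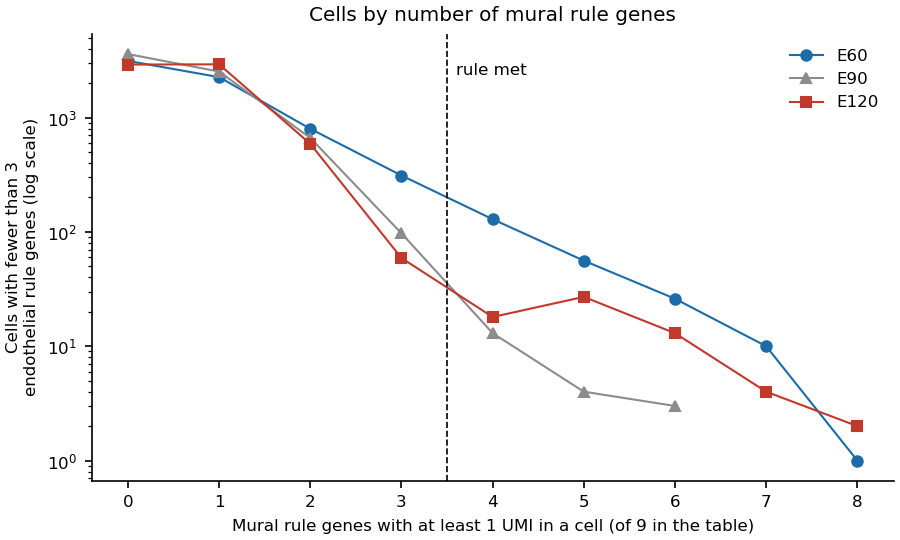
Number of cells (log axis) by the number of mural rule genes with a UMI, among cells under the endothelial limit, for E60, E90 and E120; the dashed line marks the threshold of 4 genes. E60 declines steadily from 311 cells with 3 genes to 129 with 4, whereas E120 has 18 cells with 4 genes and 27 with 5.

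Genes outside the rule were graded across the threshold at E60. ITGA7, the laminin-binding integrin chain of muscle, stood at 28.7 CPM in E60 cells with 3 rule genes, 143 CPM with 4, 311 CPM with 5 and 351 CPM with 6 or more. RGS16, a GTPase activator of the same family as RGS5, stood at 21.1, 148, 263 and 383 CPM in the same order. The fibroblast proteoglycan gene DCN ran the other way, at 7721, 6169, 3456 and 2535 CPM. Each added rule gene thus went with more muscle integrin and less fibroblast transcript.

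At E120 mural genes and keratins stepped at different places. TBX2, a T-box transcription factor, was at 22.6 CPM with 3 rule genes, 133 CPM with 4, 348 CPM with 5 and 369 CPM with 6 or more. KRT17, a keratin of the follicle's outer layers, was at 3791, 8403, 237 and 41.8 CPM. Of the 1705 KRT17 UMIs in the 18 cells with exactly 4 rule genes, 1699 came from 2 cells, and 7 of the 18 held any. KRT14, the basal keratin, was at 4708 CPM with 3 rule genes and 187 CPM with 4.

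**Figure D2:**
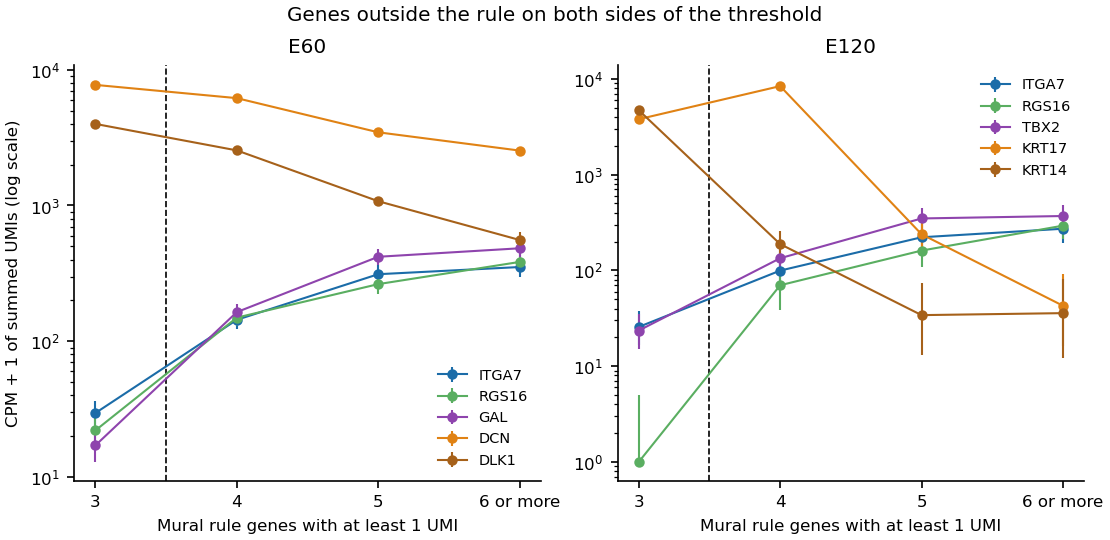
CPM + 1 (log axis) of 5 genes outside the rule in cells with 3, 4, 5 and 6 or more rule genes, at E60 and at E120; bars are 95% Poisson intervals. ITGA7 climbs with the number of rule genes in both panels, DCN and DLK1 decline at E60, and KRT17 drops from 8403 CPM at 4 genes to 237 CPM at 5 at E120.

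The rule genes that made a cell a member differed between the stages. These levels were used by the rule and are a description. RGS5, which limits G-protein signalling in pericytes, was at 7.51 CPM (4.38 to 12) in E60 members and 388 CPM (337 to 445) in E120 members. It had a UMI in 14 of 222 cells (6.31%) at E60 and in 52 of 64 cells (81.2%) at E120. It was found in none of the 130 endothelial cells of E60 and none of the 358 of E120, which allows a share of cells with a UMI of up to 2.31% and 0.838% when 3 cells are taken as the limit of a count of 0. Endothelial cells are here those with at least 3 endothelial and fewer than 4 mural rule genes, with medians of 15308 and 6470 UMIs.

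HIGD1B, which encodes a small hypoxia-inducible domain protein of pericytes, followed RGS5. It was at 30.5 CPM (23.7 to 38.6) in E60 members and 457 CPM (401 to 518) in E120 members, and had a UMI in 44 of 222 cells (19.8%) and 43 of 64 cells (67.2%). Of E60 members 51 of 222 (23.0%) held RGS5 or HIGD1B, and of E120 members 59 of 64 (92.2%). With every cell thinned to 2000 UMIs, RGS5 had a UMI in 1.80% of E60 members and 54.7% of E120 members, and HIGD1B in 5.41% and 42.2%. Both pericyte markers were therefore in a larger share of the E120 cells at equal depth as well.

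The 3 other genes of the pericyte side were in most members at both stages. NOTCH3, the receptor, was at 331 CPM and 364 CPM in E60 and E120 members and had a UMI in 95.9% and 96.9% of them. Among the other cells NOTCH3 had a UMI in 17.1% at E60 and 38.1% at E120, so many cells outside the members held it too. KCNJ8, the pore of the vascular ATP-sensitive potassium channel, was at 213 and 307 CPM in members against 7.34 and 0.280 CPM in other cells. ABCC9, the regulatory subunit of the same channel, was at 513 and 807 CPM against 25.6 and 3.20 CPM.

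Smooth muscle genes of the rule were in fewer cells. ACTA2, smooth muscle actin, was at 1798 CPM (1743 to 1854) in E60 members and 1228 CPM (1135 to 1326) in E120 members. It had a UMI in 206 of 222 cells (92.8%) and 36 of 64 cells (56.2%), and at 2000 UMIs per cell in 70.3% and 39.1%. MYH11, smooth muscle myosin heavy chain, was at 83.1 CPM (71.6 to 95.8) and 129 CPM (100.1 to 163), from 68 of 222 cells (30.6%) and 10 of 64 cells (15.6%). CNN1, calponin, had a UMI in 19.8% and 9.38% of members, and TAGLN, transgelin, in 14.9% and 15.6%. ACTA2 was thus the only one of the 4 found in most members.

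Combinations of rule genes split the stages further. At E60, 83 of 222 members (37.4%) held exactly NOTCH3, KCNJ8, ABCC9 and ACTA2 and no further rule gene, whereas none of the 64 E120 members did, which by the same limit of 3 cells allows up to 4.69%. RGS5 without MYH11 was found in 5 E60 members and in 45 E120 members. MYH11 without RGS5 was found in 59 E60 members and in 3 E120 members. Neither gene was found in 149 of 222 members at E60 (67.1%) and in 9 of 64 at E120 (14.1%). These shares include the subclusters led by fibroblast, mixed or keratin genes that are described below. In the remaining members, defined below without them, the exact combination was in 29 of 111 E60 cells (26.1%) and 0 of 45 E120 cells. Neither RGS5 nor MYH11 was found in 53 of 111 (47.7%) and 3 of 45 (6.67%) of the remaining members. MYH11 was found in 55 of 111 (49.5%) and 7 of 45 (15.6%) of them.

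**Figure D3:**
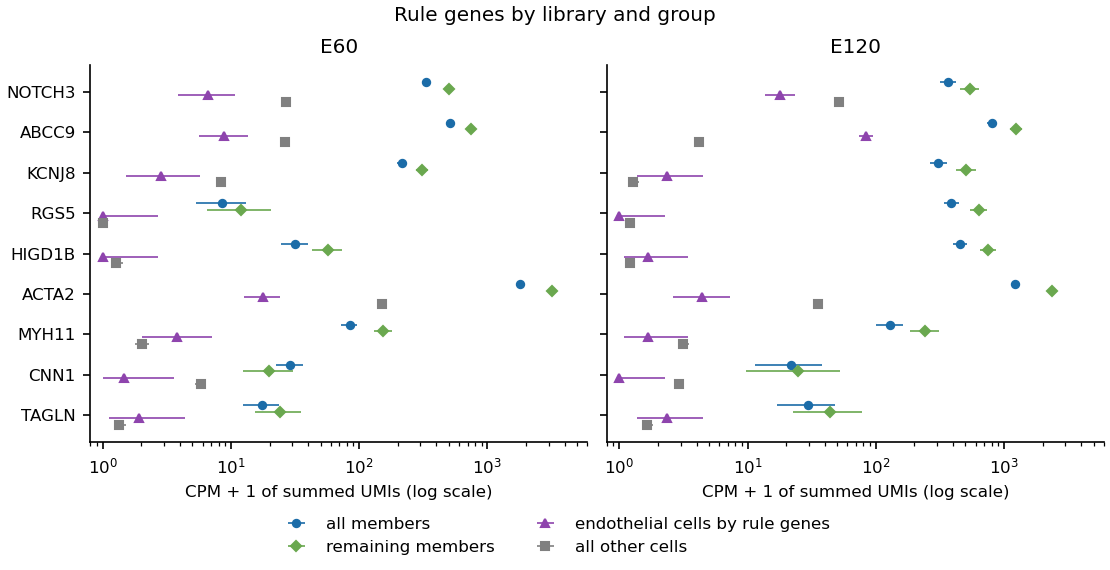
CPM + 1 (log axis) of the 9 rule genes in members, in the remaining members (without E60 subclusters 1 and 4 and E120 subcluster 3), in endothelial cells and in all other cells, at E60 and E120; bars are 95% Poisson intervals. RGS5 lies at 7.51 CPM in E60 members and 388 CPM in E120 members, and NOTCH3 at 331 and 364 CPM.

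Each rule gene was also read in cells that were chosen by 4 of the other rule genes, so that it did not take part in the choice. RGS5 was then found in 11 of 219 cells (5.02%) at E60 and 41 of 53 cells (77.4%) at E120, against 0.0452% and 0.234% of the cells not chosen. MYH11 was found in 59 of 213 cells (27.7%) and 9 of 63 cells (14.3%), against 1.04% and 2.56%. ACTA2 was found in 92 of 108 cells (85.2%) and 29 of 57 cells (50.9%), against 37.2% and 19.0%. All 9 genes were in a larger share of the chosen than of the remaining cells in both libraries, and CNN1 at E120 came closest, with 2 of 60 cells (3.33%) against 2.09%.

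Clustering of the members alone gave 4 subclusters at E60, of which 1 was led by genes of dermal fibroblasts and 1 was mostly called doublets. Subcluster 1, with 82 cells, was led by CYTL1, IGF1, MFAP5, DLK1, CLEC3B, SMOC2 and SFRP1. DLK1, a Notch-like surface protein of fetal mesenchyme, was at 4281 CPM there and 137 CPM in subcluster 2. Of its 82 cells 68 held exactly 4 rule genes, and 15 were called doublets. The 14 dermal fibroblast genes summed to a median of 54687 CPM per cell in subcluster 1, and the contractile genes outside the rule to 1247 CPM.

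Subcluster 4 of E60, with 29 cells, was led by CDC42EP3, HS3ST6, BCL11B, CDH6, CXCL14 and FN1. Its cells had a median of 14641 UMIs against 8998 in all E60 members, and 21 of the 29 (72.4%) were called doublets. CXCL14, a chemokine of upper dermis and epidermis, was at 797 CPM there against 66.4 CPM in subcluster 2. The part that doublets play in subcluster 4 was not tested beyond this count.

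The other 2 E60 subclusters were led by smooth muscle genes and by genes of division. Subcluster 2, with 69 cells and no called doublet, was led by RERGL, GADD45G, SPP1, ADIRF, GAL, TM4SF1, MYH11, ACTG2 and TRPV2. RERGL, a Ras-like gene of vascular smooth muscle, was at 177 CPM (144 to 216), and MYH11 at 209 CPM (172 to 251). The contractile genes outside the rule had a median of 8077 CPM per cell there, and the fibroblast genes 6239 CPM. Subcluster 3, with 42 cells and 6 called doublets, was led by the mitotic genes AURKA, NUSAP1, CDCA2, ASPM, CENPF and KIF23, and its cell cycle genes had a median of 6424 CPM per cell against 859 CPM in subcluster 2.

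At E120 the members formed 3 subclusters, 1 of them led by keratins. Subcluster 3, with 19 cells, was led by KLK10, KRT7, KRT17, KRT75, UHRF1, AREG and KRT84, and KRT17 was at 6374 CPM there against 67.1 and 0 CPM in subclusters 1 and 2. Its cells had a median of 12347 UMIs against 5630 in all E120 members, and 8 of the 19 (42.1%) were called doublets. The epithelial and follicle genes ranged from 862 to 63292 CPM per cell in it, with a median of 2436 CPM. Within the subcluster, then, keratin ran from the level of the other members to many times that level.

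The other 2 E120 subclusters were led by genes of vessels and connective tissue. Subcluster 1, with 25 cells and no called doublet, was led by COL11A1, TNMD, IGF2, RRAD, HLX, HBEGF, IFIT1, COL1A2 and OAS1, and the COL11A1 counts, 194 CPM, came from 1 cell. Subcluster 2, with 20 cells and 1 called doublet, was led by S100A4, the haemoglobin genes HBAI and HBAII, MGP, AKAP12, TINAGL1, MYH11, FAM162B and MRGPRF.

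The name mural cell thus rests on unequal ground. E60 subclusters 1 and 4 and E120 subcluster 3, with 111 of 222 and 19 of 64 members, were led by fibroblast genes, by a mixed set or by keratins. These cells met the rule but were left out below by subcluster, not cell by cell. In E120 subcluster 3 the epithelial genes had a median of 2436 CPM per cell, against 1717 and 1441 CPM in subclusters 1 and 2. Some of its cells thus had no more keratin than cells of subclusters 1 and 2, and whether those are mural was not tested. The 111 E60 cells of subclusters 2 and 3 and the 45 E120 cells of subclusters 1 and 2 are called the remaining members, a choice made after the values were seen. Doublets were called in 6 of 111 (5.41%) and 1 of 45 (2.22%) of them, against 42 of 222 (18.9%) and 9 of 64 (14.1%) of all members. Remaining members had medians of 8090 and 5357 UMIs.

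Fibroblast transcripts were not gone from the remaining E60 members. In subcluster 3, 10 of 42 cells held more of them, 28466 to 63604 CPM, than any cell of subcluster 2, whose highest had 19644 CPM. Their contractile genes outside the rule had a median of 1718 CPM per cell, and 3 of the 10 were called doublets. These 10 cells held 52.0% of the fibroblast UMIs of the 111 remaining E60 members, 79.5% of those of DLK1 and 90.2% of those of MFAP5. Several stage results are therefore also given against E60 subcluster 2 alone.

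**Figure D4:**
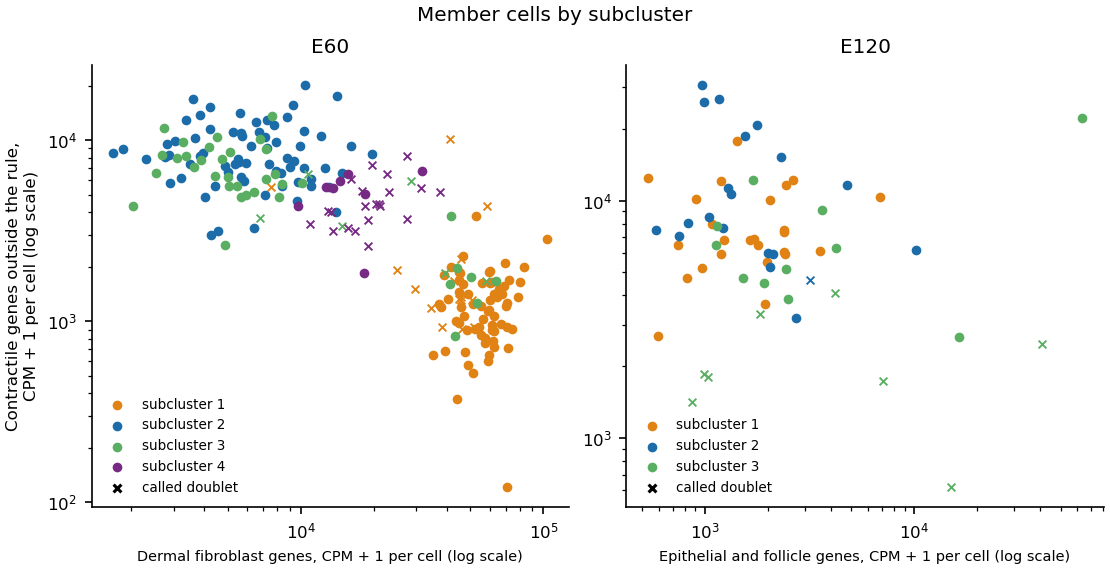
Each member cell by its contractile genes outside the rule (vertical, CPM + 1, log axis) against its dermal fibroblast genes at E60 or its epithelial and follicle genes at E120 (horizontal, CPM + 1, log axis); colours are subclusters and crosses are called doublets. E60 subcluster 1 lies at the right, with a median of 54687 CPM of fibroblast genes against 6239 CPM in subcluster 2, and some cells of E120 subcluster 3 reach 63292 CPM of epithelial genes.

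Endothelial genes outside the rule and Schwann, melanocyte, myeloid and mast cell markers were low in both sets of remaining members. Fibroblast genes at both stages and keratins at E120 were not. The skeletal muscle list summed to 648 CPM at E60 and 82.7 CPM at E120, and haemoglobin genes to 45.8 and 654 CPM. Of the 8 endothelial rule genes, which the rule itself keeps low, CDH5, TIE1, EGFL7 and CLDN5 were at 0 in all members of both stages, and PECAM1 and TEK at E120 as well. Endothelial genes outside the rule summed to 118 and 98.4 CPM in remaining members of E60 and E120 and to 7239 and 6284 CPM in endothelial cells. Schwann, melanocyte, myeloid and mast cell lists summed to at most 52.8 CPM in remaining members of either stage, and none of their genes reached 20 CPM in a comparison of stages. Fibroblast genes summed to 11771 CPM at E60 and 2426 CPM at E120, against 3121 and 209 CPM in endothelial cells of the same libraries.

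KRT35, KRT85 and KRT71, keratins of the hair shaft and inner root sheath, were at 0 in E60 members and present in most E120 members. KRT35 had a UMI in 86.7% of the remaining E120 members and in 91.3% of the E120 endothelial cells, which should lack it. Its levels were 575 CPM and 1385 CPM, against 5866 CPM in all other E120 cells. KRT85 was at 689 and 1155 CPM and KRT71 at 358 and 1047 CPM in remaining members and endothelial cells. KRT85 and KRT71 had a UMI in 88.9% and 84.4% of the remaining members and in 92.2% and 87.2% of the endothelial cells. Shares and levels of these 3 keratins in remaining members were thus below those in endothelial cells, at medians of 5357 and 6470 UMIs. Whether the members express these keratins was not tested, and other follicle genes are not compared in this way here. Free RNA in the droplets was not measured.

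E60 members stood out from the rest of the E60 skin by neuropeptide, integrin and contractile genes. Every comparison with other cells uses the values that chose the members and is a description, and a gene is said to be higher or lower only at a ratio of CPM + 1 of at least 2 with at least 20 CPM in the higher group. Of 4018 genes with that level, 270 (6.72%) were higher and 112 (2.79%) lower in members, in remaining members 504 (12.1%) and 285 (6.83%) of 4175, and in subcluster 2 alone 520 (12.2%) and 463 (10.9%) of 4251. GAL, the neuropeptide galanin, was at 284 CPM (263 to 307) in members and 2.20 CPM in the other cells, and had a UMI in 114 of 222 cells (51.4%). In the remaining members it was at 546 CPM.

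RGS16 was at 219 CPM in E60 members against 5.05 CPM in other cells, a ratio of 43.4. The integrin chains ITGA1 and ITGA7, receptors for basement membrane collagen and laminin, were at 126 and 222 CPM against 3.14 and 7.85 CPM. MYLK, the kinase that switches on smooth muscle myosin, was at 171 against 4.76 CPM. The remaining genes of the leading 12 were the growth factor PDGFA, the IGF-binding IGFBP2, the muscle genes ACTG2 and TPM2, the chemokine receptor CXCR4, the adaptor SH2D3C and the nuclear receptor NR2F2.

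Among them PDGFA was at 225 CPM in E60 members against 10.0 CPM, and IGFBP2 at 415 against 20.1 CPM. ACTG2, the enteric type of smooth muscle actin, was at 213 against 13.1 CPM, and TPM2, beta tropomyosin, at 1214 against 95 CPM. NR2F2, which specifies veins in endothelium and is also used by mesenchyme, was at 293 against 26.9 CPM, and CXCR4 at 287 against 22.2 CPM.

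In remaining members of E60, RERGL, TMEFF2, TBX2 and C1QTNF5 joined the leading 12. RERGL was at 118 CPM against 0.542 CPM in the other cells, and TBX2 at 169 against 5.05 CPM. Among the lowest genes in E60 members were the haemoglobins HBAII and HBAI, the lymphatic chemokine CCL21, the macrophage transglutaminase F13A1 and CXCL14. CXCL14 was at 285 CPM in all members, 81.7 CPM in remaining members and 1385 CPM in other cells.

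By list, the contractile apparatus outside the rule had 13 higher and 0 lower of 21 genes in E60 members against other cells and 16 higher and 0 lower of 20 in the remaining members. Vasoactive receptors and relaxation genes had 4 higher and 0 lower of 5, among them GUCY1A1, AVPR1A, PDE5A and EDNRA as higher. NOTCH pathway genes had 3 higher and 0 lower of 5, with HEY2, HEY1 and JAG1 higher. Basement membrane and matrix genes had 9 higher and 1 lower of 21, mural transcription factors 5 higher and 0 lower of 18 and PDGF, angiopoietin and TGFB signalling genes 10 higher and 0 lower of 21. The median log2 ratio was 1.20 over the contractile genes and 0.10 over all 4018 genes, of which 6.72% were higher and 2.79% lower in all members.

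The lists of other cells moved with the choice of members at E60. The fibroblast list had 2 higher and 0 lower of 12 in all members, with MFAP5 and DLK1 higher, and 0 higher and 6 lower of 12 in the remaining members, with CRABP1, PDGFRA, MFAP5, DCN, POSTN and FBN2 lower. In subcluster 2 alone the fibroblast list had 0 higher and 11 lower of 12. The cell cycle list had 0 higher and 0 lower of 20 in all members, 15 higher and 0 lower of 21 in remaining members and 4 higher and 11 lower of 18 in subcluster 2 alone, and subcluster 3, which holds the dividing cells, is 42 of the 111 remaining members. The pericyte list had 2 higher and 2 lower of 6, with GJC1 and TBX18 higher and the aminopeptidases ANPEP and ENPEP lower. The endothelial list outside the rule had 0 higher and 4 lower of 5, and the stress list 0 higher and 0 lower of 10. The dermal sheath list had 4 higher and 0 lower of 6, the papilla list 3 higher and 2 lower of 7, and the skeletal muscle list 2 higher and 0 lower of 2, through DES and ACTC1.

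E120 members differed from the rest of their library by more genes. Of 4354 genes, 916 (21.0%) were higher and 341 (7.83%) lower in members, and in remaining members 1269 (28.1%) and 770 (17.0%) of 4517. The E120 library was made of dissected follicles, and the fibroblast list summed to 706 CPM in its other cells and to 23492 CPM in the other E60 cells. TBX2 led, at 271 CPM (228 to 319) in members and 0.474 CPM in other cells. EBF2, an early B-cell factor of pericytes and fat precursors, was at 127 CPM (98.4 to 161) against 0.0646 CPM, and OGN, the proteoglycan osteoglycin, at 381 against 1.35 CPM.

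PKDCC, a secreted tyrosine kinase of mesenchyme, was at 396 CPM in E120 members against 2.25 CPM. GUCY1A1, a subunit of the nitric oxide receptor that makes cyclic GMP, was at 191 against 1.07 CPM, and TPM2 at 1040.3 against 10.6 CPM. The other leading genes were PCDH18, ASPN, ITGA4, PLCE1, RFTN1 and ECM2. The lowest were GPRC5D, KRT27, KRT19, CST6 and FABP3.1, genes of follicle epithelium and its fatty acid handling, and the endothelial gene PLVAP, at 7.58 CPM against 114 CPM. In remaining members KLK10, KRT84, HOXC13, LHX2, CXCL14 and KRT14 were the lowest.

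At E120 each list of mural genes held more higher than lower genes, as did all 4354 genes, with 21.0% higher and 7.83% lower. The contractile list had 18 higher and 0 lower of 20, the matrix list 20 higher and 1 lower of 21, the transcription factors 13 higher and 0 lower of 17, the vasoactive list 7 higher and 0 lower of 8 and the pericyte list 5 higher and 0 lower of 5. The signalling list had 14 higher and 3 lower of 19, with FGF7, KITLG and BMP4 lower. The NOTCH list lay nearest to all genes, with 2 higher and 1 lower of 6, HEY2 and HEY1 being higher and the ligand JAG2 lower. In remaining members HES1 and RBPJ were higher too, and the list had 4 higher and 1 lower of 6. The median log2 ratio was 3.05 over the contractile genes, 3.05 over the matrix genes and 0.12 over all 4354 genes.

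Among lists of other cells, the papilla genes had 1 higher and 7 lower of 9 in E120 members, GAL being the higher one. The epithelial list had 1 higher and 9 lower of 14, KRT17 being the higher one, and 0 higher and 14 lower of 14 without subcluster 3. The cell cycle list had 0 higher and 1 lower of 17 in all members. It had 0 higher and 13 lower of 16 in the remaining members, which leave out subcluster 3 with its dividing cells. The fibroblast list had 5 higher and 1 lower of 7, with OGN, LUM, COL1A1, COL1A2 and POSTN higher. All 6 tested genes of the dermal sheath list were higher in members, the endothelial list outside the rule had 0 higher and 2 lower of 3, and the stress list 4 higher and 0 lower of 15, with FOSB, IER2, FOS and EGR1 higher.

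The contrast between E120 members and E60 members did not enter the rule, but the rule genes chose the cells of both stages. Of 4599 genes, 761 (16.5%) were at least 2-fold higher at E120 and 678 (14.7%) at least 2-fold lower. In remaining members the counts were 805 (17.6%) and 796 (17.4%) of 4564, and against E60 subcluster 2 alone 863 (19.1%) and 644 (14.3%) of 4512. The other cells of the 2 libraries differed as widely, with 18.8% higher and 22.0% lower. They came from whole skin at E60 and from dissected follicles at E120, so their make-up of cell types differed as well. The median log2 ratio over all genes was 0.07 in all members and 0.02 in the remaining ones. Values below are for remaining members, and all members are added for genes described singly where their ratio differs from it by over 1.5 times. The list counts below are to be read beside these shares over all genes, and a count near them is no trait of its list.

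At the extremes stood keratins, fibroblast genes and cell cycle genes. In all members the 15 genes with the largest ratios were KRT17, KRT35, KRT85, KLK10, KRT71, TUBA4A, FABP9, HSPB8, KRT84, KRT25, KRT7, DSP, DAPL1, KRT27 and DSG1. The 15 with the smallest were DLK1, MFAP5, SERPINF1, LRRC17, TNFAIP6, CYTL1, PTN, FAP, CILP, GAS6, NKD2, TMEM132C, ANGPTL1, PENK and CDON. Of these, 8 and 5 were also among the 15 of the remaining members. DLK1 was at 475 CPM (433 to 519.8) in remaining E60 members and 0 in E120 members, at least 40.2-fold lower, at least 320.1-fold in all members and at least 11.6-fold against E60 subcluster 2, which had 137 CPM, and in the other cells it was at 771 CPM and 0. The remaining members added UPP1, DLX5, FABP3.1, RGS5, NR4A2, ARHGDIB and FN1 at the upper end. Levels of UPP1, DLX5, NR4A2 and ARHGDIB in the other cells are not given here. Their ratios are therefore not read as particular to the members.

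NR4A2, an orphan nuclear receptor of the immediate early kind, was at 12.9 CPM (6.90 to 22.1) and 630.0 CPM (536 to 736) in remaining members of E60 and E120, a ratio of 48.7 (27.7 to 93.4). ARHGDIB, a regulator of small GTPases, was at 19.9 and 760.0 CPM, and the homeobox gene DLX5 at 0.996 and 213 CPM, a ratio of 213 (36.7 to 8585). UPP1, uridine phosphorylase, had no UMI in the remaining E60 members and was at 268 CPM at E120, at least 89.6-fold higher, and at 188 CPM in all E120 members. At the lower end, besides DLK1, were among others UCHL1, CNMD, LRRC17, MFAP5, FAP and TNFAIP6 and the division genes NCAPG, UHRF1, BUB1B, CDCA2, ASPM, AURKA and KIF23. None of these genes had a UMI in the remaining E120 members. In all members these division genes had ratios from 0.311 for AURKA to 0.585 for UHRF1, with all their E120 UMIs in subcluster 3. Cell cycle genes summed to 4381 CPM in remaining members at E60 and 362 CPM at E120, and to 1922 and 1313 CPM in other cells. The list had 0 higher and 21 lower of 21 genes in remaining members and 0 higher and 10 lower of 20 in all members. Remaining members keep the dividing cells of E60 subcluster 3 but leave out E120 subcluster 3, where cell cycle genes reached 15049 CPM per cell. The counts and sums of remaining members thus depend on that choice. Against E60 subcluster 2 alone the list had 1 higher and 9 lower of 10, its sum there being 1214 CPM, and MFAP5, BUB1B, CDCA2, ASPM and KIF23 no longer reached 20 CPM.

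Among the rule genes only RGS5 and HIGD1B passed 2-fold between the stages. Since these genes chose the cells of both stages, their levels and ratios are a description. RGS5 was at 11.0 CPM (5.47 to 19.6) in remaining E60 members and 634 CPM (539.8 to 739.8) in remaining E120 members, a ratio of 57.9 (31.5 to 118). HIGD1B was at 55.8 CPM (42.1 to 72.4) and 748 CPM (646 to 862), a ratio of 13.4 (9.91 to 18.4). The ratios of the other 7 lay between 0.741 for ACTA2 and 1.89 for TAGLN in the remaining members. NOTCH3 was level, with a ratio of 1.08 (0.890 to 1.31). In the other cells RGS5 was at 0 and 0.215 CPM and HIGD1B at 0.271 and 0.205 CPM. Neither gene was thus above 1 CPM outside the members at either stage, a level that the rule itself helps to keep low.

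Pericyte-associated genes outside the rule, 14 of which are in the table, had 4 higher and 2 lower of 8 in remaining members with the 20 CPM needed, and 3 higher and 2 lower of 7 in all members. PDGFRB, the receptor for PDGF-B, was at 16.9 CPM (9.86 to 27.1) and 86.6 CPM (54.3 to 131), a ratio of 5.12 (2.59 to 10.3), and of 2.93 against E60 subcluster 2 alone. GJC1, connexin 45 of vascular gap junctions, was at 94.6 and 287 CPM, a ratio of 3.04 (2.21 to 4.16). ENPEP, the aminopeptidase that cleaves angiotensin II, was at 7.97 and 55.1 CPM, a ratio of 6.92, and of 4.29 in all members, and HEYL, a NOTCH target, at 7.97 and 23.6 CPM.

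ANPEP and RGS4 were the pericyte-associated genes that were lower at E120. ANPEP, aminopeptidase N, was at 91.0 CPM in all E60 members, 23.9 CPM in the remaining ones and 0 at E120, at least 16-fold and 2.02-fold lower, and under 20 CPM in E60 subcluster 2. RGS4 was at 119 and 17.1 CPM in all members of E60 and E120 and at 68.7 and 31.5 CPM in the remaining ones. TBX18, a T-box marker of pericytes, did not reach 2-fold, at 77.7 and 74.8 CPM. In the other cells TBX18 was at 27.2 and 0.560 CPM.

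Of the contractile genes outside the rule, TPM1, CSRP1, VCL, CRYAB, LPP, TLN1, SYNPO2 and CALD1 were higher in remaining E120 members, and ACTG2, DES and CSRP2 were lower, CSRP2 not in all members. The list had 8 higher and 3 lower of 22 in remaining members, with a median log2 ratio of 0.66, 6 higher and 2 lower of 20 in all members and 6 higher and 3 lower of 22 against E60 subcluster 2 alone, where CALD1 and CRYAB, with ratios of 1.82 and 1.76, did not reach 2-fold. TPM1, alpha tropomyosin, was at 92.6 CPM (74.8 to 113) and 469 CPM (388 to 561), a ratio of 5.06 (3.82 to 6.71). CALD1, caldesmon, was at 1845 and 4107 CPM, and CSRP1, an actin-binding LIM protein, at 221 and 862 CPM. VCL and TLN1, the anchor proteins vinculin and talin, had ratios of 2.89 (1.93 to 4.29) and 2.61 (2.05 to 3.30).

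ACTG2 was at 398 CPM (360.4 to 439) in remaining E60 members and 74.8 CPM (45.0 to 117) in E120 members, a ratio of 0.188 (0.112 to 0.297). DES, the muscle intermediate filament desmin, was at 292 CPM (259 to 327) and 59.1 CPM (33.1 to 97.4), a ratio of 0.202 (0.112 to 0.339). MYLK, TPM2 and RERGL did not reach 2-fold, with ratios of 1.15 (0.895 to 1.46), 0.863 (0.780 to 0.953) and 1.14 (0.754 to 1.68). CRYAB, a small heat shock protein of muscle and lens, was at 27.0 and 1071 CPM in all members but 52.8 and 149.6 CPM in the remaining ones. In the other cells, whose cell types differ between whole skin and follicles, the contractile list had 1 higher and 7 lower of 15.

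Several genes of the cyclic GMP pathway and of vessel tone were higher at E120. The vasoactive list had 5 higher and 1 lower of 9 in remaining members and 4 higher and 3 lower of 10 against E60 subcluster 2 alone. PDE5A, which degrades cyclic GMP, was at 31.9 CPM (21.8 to 45.0) and 205 CPM (153 to 269), a ratio of 6.42 (4.06 to 10.3). GUCY1A1, which helps to make it, had a ratio of 2.43 (1.82 to 3.24), and PRKG1, the kinase it activates, was at 8.97 and 31.5 CPM. ADORA2A, an adenosine receptor that relaxes vessels, was at 2.99 and 51.2 CPM, a ratio of 17.1 (4.71 to 93.7), and ATP2A2, the calcium pump, at 5.98 and 23.6 CPM. PTH1R, the parathyroid hormone receptor, was at 123 and 39.4 CPM, a ratio of 0.321, and of 0.179 in all members. EDNRA, the endothelin receptor, was at 281 and 161 CPM, a ratio of 0.575 (0.404 to 0.8) that did not reach 2-fold, and 0.449 in all members and 0.458 against E60 subcluster 2, which did. Against that subcluster PRKG1 no longer reached 2-fold, and ADORA2A had a ratio of 9.24 (2.54 to 50.6).

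The NOTCH targets HES1 and HEY1 were higher at E120. HES1 was at 76.7 CPM (60.5 to 95.9) in remaining E60 members and 658 CPM (562 to 765) in E120 members, a ratio of 8.57 (6.51 to 11.4). HEY1 was at 77.7 and 197 CPM, a ratio of 2.53 (1.74 to 3.66), and HEY2, at 48.8 and 90.6 CPM, did not reach 2-fold. The other cells moved the same way, HES1 from 41.6 to 262 CPM and HEY1 from 3.14 to 20.2 CPM. Whether the members' difference exceeds that of the library was not tested. JAG2, a ligand, was at 26.5 CPM in all E120 members and 3.94 CPM in the remaining ones, and the list had 2 higher and 0 lower of 5 in remaining and 4 higher and 1 lower of 6 in all members.

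In the signalling list, 9 higher and 5 lower of 21 genes passed in remaining members and 7 higher and 8 lower of 24 in all members. The BMP targets ID1, ID3 and ID4, inhibitors of helix-loop-helix factors, were at 184, 356 and 305 CPM in remaining E60 members and at 1193, 3453 and 1819 CPM at E120. In the other cells they were at 181, 174 and 19.7 CPM and at 1761, 1669 and 127 CPM, so these too were higher across the E120 library. SMAD7, a brake on TGFB signalling, was at 12.9 and 122 CPM in remaining members and at 3.69 CPM in E60 subcluster 2.

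Some vessel growth factors were higher in E120 members. ANGPT2, which loosens the contact of pericyte and endothelium, was at 7.97 CPM (3.44 to 15.7) and 59.1 CPM (33.1 to 97.4) in remaining members and at 0.430 and 0.248 CPM in other cells. BMP5 was at 3.98 and 51.2 CPM, and VEGFA at 35.9 and 169 CPM. The ratios of ANGPT2, BMP5 and VEGFA were 7.41, 12.8 and 4.72 in remaining members, 10.7, 27.7 (4.17 to 1179) and 5.40 against E60 subcluster 2 and 4.29, 4.08 and 2.09 in all members. TGFBR3, betaglycan, was lower, with a ratio of 0.0520 (0.00130 to 0.299) in remaining and 0.0120 (0.000303 to 0.0673) in all members, as were IGFBP2, at 797 and 169 CPM, and IGFBP5, at 716 and 272 CPM. PDGFA and IGFBP7 did not reach 2-fold, with ratios of 1.23 (1.00 to 1.5) and 1.56 (1.42 to 1.70).

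FN1, COL15A1, MGP, COL4A2, COL4A1, ITGB1, NID2, LAMA4 and CCN2, genes of the matrix and its receptors, were higher in remaining E120 members. The list had 9 higher and 1 lower of 22 in them, with a median log2 ratio of 0.53, but 7 higher and 5 lower of 22 and a median of −0.25 in all members. COL4A1 and COL4A2, the 2 main chains of collagen IV, were at 586 and 253 CPM at E60 and 1886 and 909.6 CPM at E120, ratios of 3.22 (2.85 to 3.64) and 3.59 (3.00 to 4.31). LAMA4, the laminin chain of vessels, was at 81.7 and 181 CPM, and COL15A1 at 3.98 and 59.1 CPM. In other cells, which came from whole skin at E60 and from follicles at E120, the list had 1 higher and 15 lower of 19. Their cell types differ between the libraries, so this count is no measure of what is particular to the members. Against E60 subcluster 2 alone it had 8 higher and 1 lower of 22, without CCN2.

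FN1, fibronectin, was at 8.97 CPM (4.10 to 17.0) and 331 CPM (264 to 409.5) in remaining members, a ratio of 36.9 (18.5 to 83.5), but at 57.0 and 218 CPM in all members, and at 3.69 CPM in E60 subcluster 2. MGP, an inhibitor of calcification, was at 85.7 and 768 CPM, and at E120 it came from 12 of 45 cells (26.7%). SPARC, a matrix glycoprotein, was level in remaining members at 4208 and 3875 CPM and lower at E120 in all members, at 5887 and 2312 CPM. ADAMTS4, a matrix protease, was the 1 lower gene of the list in remaining members, at 536 and 228 CPM.

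Of the mural transcription factors, 7 higher and 1 lower of 22 genes passed in remaining members and 5 higher and 2 lower of 20 in all members. Over all genes 17.6% were higher and 17.4% lower in remaining members, and 16.5% and 14.7% in all members. TBX2 was at 169 CPM (145 to 197) and 425 CPM (349 to 513), a ratio of 2.51 (1.95 to 3.21), and TBX3 at 12.9 and 122 CPM, a ratio of 9.43, and of 3.8 in all members. KLF4, which represses smooth muscle genes, was at 83.7 and 788 CPM in remaining members and at 233 and 504 CPM in all members, with 53.5 CPM in E60 subcluster 2. NR4A1 was at 2.99 and 55.1 CPM, a ratio of 18.4 (5.15 to 100.1), and EPAS1, the hypoxia factor HIF-2 alpha, at 16.9 and 86.6 CPM. FOXF2, a forkhead factor of brain and gut pericytes, had no UMI in remaining E60 members and 31.5 CPM at E120, at least 10.5-fold higher, from 3 of 45 cells (6.67%), and 17.1 CPM in all E120 members.

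MRTFB, a coactivator of serum response factor, was lower at E120, at 117 and 51.2 CPM in remaining members. EBF2 lay at the limit, at 105 and 209 CPM, a ratio of 2.00, and of 2.02 against E60 subcluster 2. NR2F2 was level, at 495 and 433 CPM, and MEF2C was at 251 and 177 CPM. In the other cells NR2F2 was at 26.9 and 4.87 CPM and the list had 0 higher and 11 lower of 13.

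**Figure D5:**
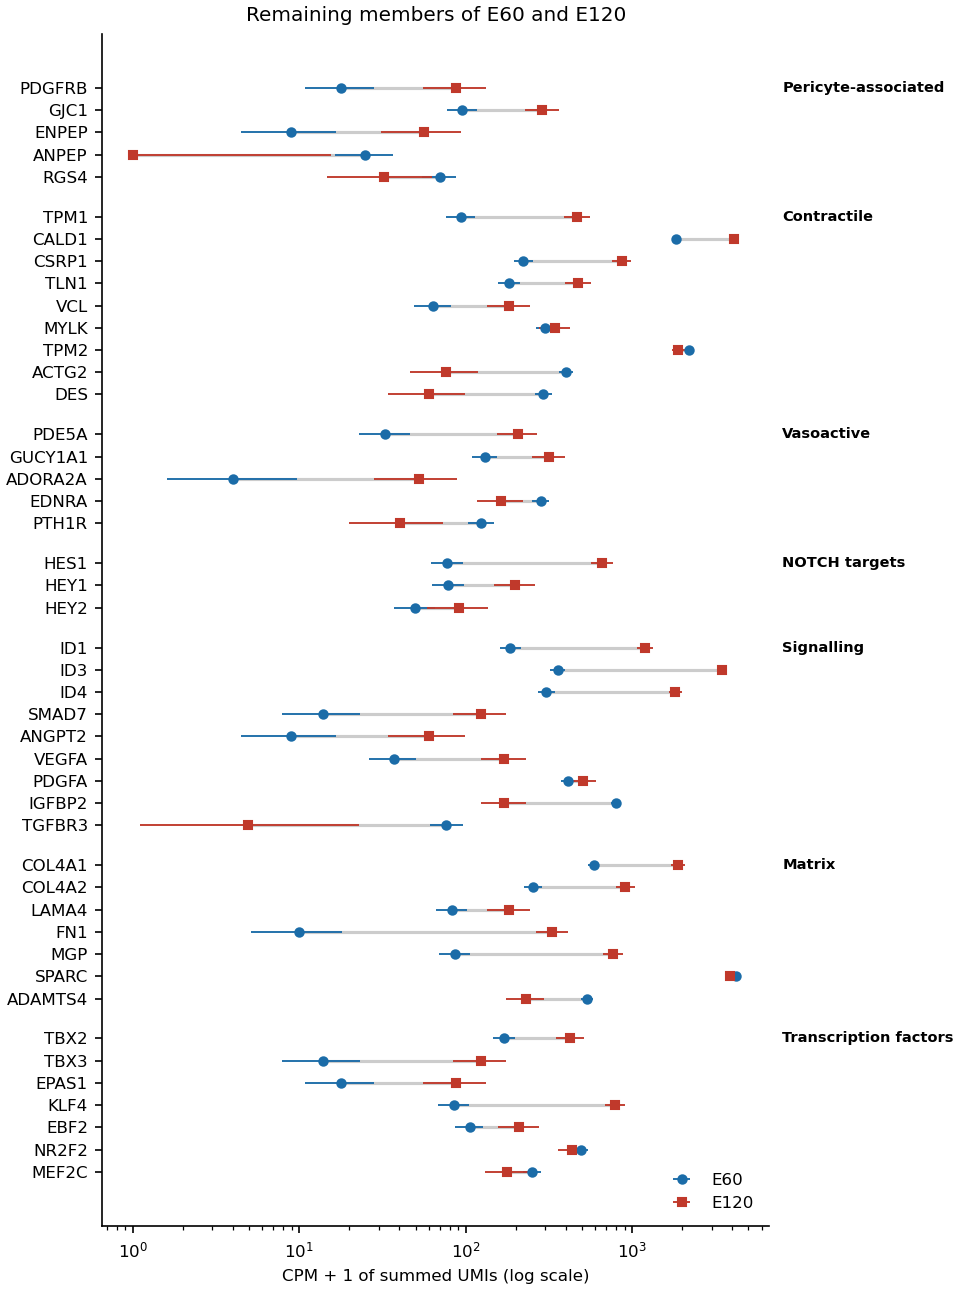
CPM + 1 (log axis) of genes by role in the remaining members of E60 and E120, with 95% Poisson intervals. PDGFRB, TPM1, PDE5A, HES1, COL4A1 and TBX2 lie higher at E120, ACTG2 lies at 398 CPM at E60 and 74.8 CPM at E120, and MYLK and NR2F2 lie close together at the 2 stages.

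Lists of other cells differed between the stages in the members and in the other cells alike. Fibroblast genes had 0 higher and 9 lower of 10 in remaining members, 0 higher and 12 lower of 12 in all members and 0 higher and 12 lower of 12 in the other cells, and 0 higher and 5 lower of 8 against E60 subcluster 2 alone. Epithelial genes had 9 higher and 0 lower of 9 in remaining members, 12 higher and 0 lower of 12 in all members and 14 higher and 0 lower of 14 in the other cells. The stress list had 7 higher and 0 lower of 15 in remaining members and 3 higher and 1 lower of 13 in the other cells; IER3 had a ratio of 31.6 (4.24 to 1403) from 1 UMI at E60, and ATF3 was at 19.9 and 177 CPM in remaining members. Since the dissociation differed, the part of the enzyme in these genes cannot be told apart from that of the stage.

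Smaller lists were carried by few genes, and over all genes 17.6% were higher and 17.4% lower in remaining members. The dermal sheath list had 1 higher and 3 lower of 7 in remaining members, NPNT being higher and ACTG2, DES and ABI3BP lower, and the papilla list had 2 higher and 1 lower of 4, BAMBI and WIF1 being higher and CRABP1 lower. The skeletal muscle list had 0 higher and 2 lower of 2, through ACTC1 and DES, and the endothelial list outside the rule 0 higher and 1 lower of 2. Of the 8 endothelial rule genes only ESAM, an adhesion molecule that pericytes share with endothelium, reached 20 CPM, at 248 and 402 CPM. The list of other mural, visceral muscle and angiogenic genes had 4 higher and 2 lower of 12, with the carboxypeptidase gene CPM, THY1, ARHGAP42 and GUCY1A1 higher and PTN and MDK lower. Haemoglobin genes summed to 45.8 and 654 CPM, and HBAI at E120 came from 5 of 45 cells (11.1%).

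The E120 subclusters 1 and 2 differed in the balance of pericyte and smooth muscle genes. They were drawn from the same values, so this is a description. Of 4748 genes, 16.5% were at least 2-fold higher in subcluster 2 and 20.6% lower. With so few UMIs, 3 counts are 22.4 CPM in subcluster 1 and 25.0 CPM in subcluster 2, above the limit of 20 CPM. These shares and the list counts of this comparison can therefore include genes called on as few as 3 UMIs. RGS5 was at 857 CPM (708 to 1029) in the 25 cells of subcluster 1 and 384 CPM (281 to 512) in the 20 cells of subcluster 2. MYH11 was at 0 in subcluster 1, where 3 counts are 22.4 CPM, and at 509 CPM (389.6 to 654) in subcluster 2. ACTA2 was at 477 and 4467 CPM and HIGD1B at 231 and 1328 CPM. HIGD1B thus went with the smooth muscle genes here and not with RGS5.

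The contractile list had 9 higher and 2 lower of 23 in subcluster 2 against subcluster 1. RERGL was at 7.45 and 276 CPM, DES at 7.45 and 117 CPM and TPM2 at 1028 and 2864 CPM in subclusters 1 and 2. CALD1, at 3756 and 4500.4 CPM, and MYLK, at 373 and 309 CPM, were near level. The 2 subclusters thus shared part of the contractile apparatus and differed in MYH11, ACTA2, RERGL and DES.

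ID1, ID3, ID4, HES1, KLF4 and TGFB2 were higher in subcluster 1. ID1 was at 1729 and 593 CPM, ID3 at 4613 and 2154 CPM, ID4 at 2660.3 and 877 CPM and HES1 at 984 and 292 CPM. KLF4 was at 1036 and 509 CPM and TGFB2 at 164 and 0 CPM. The signalling list had 3 higher and 8 lower of 21, the transcription factors 1 higher and 7 lower of 23 and the matrix list 4 higher and 7 lower of 25, and the NOTCH list 0 higher and 1 lower of 5, with MGP at 67.1 CPM in subcluster 1 and 1553 CPM in subcluster 2.

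TBX2, NR2F2, GJC1 and COL4A1 did not reach 2-fold between these subclusters. TBX2 was at 439.7 and 409 CPM, NR2F2 at 477 and 384 CPM, GJC1 at 261 and 317 CPM and COL4A1 at 1677 and 2121 CPM. Median UMIs were 5044 and 5630 per cell, and MYH11 in subcluster 2 came from 7 of 20 cells (35.0%). The haemoglobin genes that led subcluster 2 were in few of its cells as well, HBAI in 4 of 20 cells.

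Subcluster 2 of E60 held both MYH11 and RGS5, as did subcluster 2 of E120. Single cells with both genes were few, 6 of 111 remaining members (5.41%) at E60 and 5 of 45 (11.1%) at E120. In subcluster 2 of E60, MYH11 had a UMI in 36 of 69 cells (52.2%), RGS5 in 7 of 69 cells (10.1%) and HIGD1B in 24 of 69 cells (34.8%). Subcluster 3, the dividing cells, had MYH11 at 88.7 CPM against 209 CPM in subcluster 2 and KCNJ8 at 259.7 against 351 CPM. GAL, which is also on the papilla list, was at 736 CPM in subcluster 2 and 322 CPM in subcluster 3. In remaining members of E120 it was at 425 CPM.

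The papilla, the mesenchymal core of the follicle, was another dermal group of the E120 library. Papilla cells were taken as the 185 cells, not members, with at least 8 of 17 papilla genes, a threshold chosen after the data were seen; their median was 5842 UMIs. Of 4728 genes, 14.7% were at least 2-fold higher and 18.4% lower in the 45 remaining members. The papilla list, which chose the papilla cells and so is a description here, had 0 higher and 15 lower of 16. The contractile list had 16 higher and 0 lower of 21, the matrix list 13 higher and 7 lower of 25. The transcription factors had 13 higher and 4 lower of 23.

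ABCC9 was at 1236 CPM in remaining E120 members and 0 in papilla cells, at least 549-fold higher. It is a rule gene that chose the members and that papilla cells, as non-members, were less free to hold, so this is a description. TBX2 was at 425 against 8.26 CPM and EBF2 at 209 CPM against 0. In the other direction FGF7, a growth factor for follicle epithelium, was at 0 in the remaining members and 2102 CPM in papilla cells, at least 178-fold lower. FGF7 is on the papilla list that chose those cells, so this too is a description. ENPEP, HEY2 and ID3 were papilla transcripts as well: they were at 55.1, 90.6 and 3453 CPM in remaining members and 736, 359.8 and 6361 CPM in papilla cells.

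Endothelial cells of the same libraries lay closer to the remaining members in the summed matrix list than in the summed contractile list. The contractile list summed to 7397 and 10403 CPM in remaining members of E60 and E120 and to 1421 and 2106 CPM in endothelial cells. The matrix list summed to 9347 and 11809 CPM in remaining members and to 6171 and 7508 CPM in endothelial cells. COL4A1 was at 629 and 1057 CPM in endothelial cells, and PDGFB, the ligand for PDGFRB, at 2.78 and 6.12 CPM there and 0.996 and 3.94 CPM in remaining members.

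The 20 cells of E90 that met the rule are given as values only. RGS5 had a UMI in 8 of 20 cells (40.0%), NOTCH3 in 13 of 20 cells (65.0%), ABCC9 in 12 of 20 cells (60.0%) and ACTA2 in 19 of 20 cells (95%). MYH11 had a UMI in 9 of 20 cells (45.0%). E90 was the shallowest library, so a cell had to show 4 rule genes among fewer UMIs than at the other stages.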

How the data were processed

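The deposited table held 16739 genes and 20676 cells of E60, E90 and E120, each cell assigned to its stage by the opening of its name; 0 value columns were left unmapped. The submitters' processing notes name Cell Ranger 3.0.2, and build, annotation and filters are not given in the sources used here. The deposited values were on a natural log scale, the natural log of 1 plus UMIs per 10000, as the values showed. Back-transformed, 100% of them were whole multiples of the smallest value of their cell within 0.01, so UMI counts were recovered, where the plan had assumed counts.

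Counts were summed per group and scaled to CPM. Ratios of CPM + 1 were formed for genes whose higher sum reached 20 CPM, and a gene counted as higher or lower at 2-fold; sums of 0 were set to a floor of 3 counts for bounds. With 1 library per stage no test was run. The members' summed UMIs were 2262759 at E60 and 527727 at E120, and 1003881 and 253960 in remaining members. Subclusters came from 1000 variable genes, 15 principal components, 15 neighbours and Leiden resolution 0.5 (scanpy 1.11.5, igraph 0.11.9). Doublets were called from simulated ones at an assumed rate of 6%, and 53.3% and 32.6% of simulated doublets were recovered at E60 and E120; no called cell was removed. The summing and ratios were tested on simulated data. Python 3.11.15, numpy 2.4.6 and scipy 1.17.1 were used.

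The members and all 23 gene lists were chosen with earlier results of these data known. Named genes were the rule genes, the 12 highest and 6 lowest symbols at 100 CPM or more against other cells, the 15 highest and 15 lowest between stages, up to 6 leading members of each list, and leading genes of subclusters. Other genes named, the remaining members, E60 subcluster 2 as an alternative and the papilla threshold were chosen after values were seen. Genes that carry only Ensembl identifiers, 4 or 5 of them among the highest of each comparison and up to 4 among the lowest, were passed over, and some genes that the rule names are not reported here. Alternatives were other rule thresholds, thinning, doublet removal, pseudocounts, minimum levels, weighting, scaling and clustering resolution.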

Additional observations from a re-analysis of the deposited data

How the results depend on the processing

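Some called genes changed direction with the choice of members. On the log2 scale against other E60 cells, MFAP5 stood at −0.16 with 5 rule genes, and in remaining members DLK1 at −0.70, IGF1 at −1.42, MFAP5 at −1.24, SFRP1 at −1.03 and TGFB2 at −0.0524, all higher in all members. In E60 subcluster 2 alone BMP4 stood at −0.0480, COL11A1 at −2.19, DLK1 at −2.49, IGF1 at −2.57, MFAP5 at −4.37, PTN at −0.27, SFRP1 at −1.68 and TGFB2 at −1.02, and LYVE1, lower in all members, at 0.57. Against other E120 cells with 5 rule genes COL11A1 stood at −2.53, CRYAB at −0.40, KLK10 at −2.41 and KRT17 at −1.92, and in remaining members KLK10 at −7.25 and KRT17 at −3.98. Between stages, with E60 subcluster 2 alone, COL1A2 stood at 0.37, FBN2 at 0.33, IGF1 at 0.0857, LOX at 0.0824 and MEIS1 at 0.78, all lower in all members. The median of the matrix list changed sign too, 0.53 in remaining and −0.25 in all members. The share of E60 cells that met the rule, 3.24%, was 7.78% with 3 rule genes, 1.36% with 5, 0.613% after thinning to 2000 UMIs, 1.56% with no endothelial gene allowed, 2.78% without called doublets and 1.62% without subclusters 1 and 4. For E120, 0.928%, it was 1.78%, 0.667%, 0.479% and 0.102% under the first 4 of these and 0.653% without the keratin-led subcluster. Genes higher and lower between stages, 761 and 678, numbered 2774 and 2263 with no minimum level and 210 and 212 at 100 CPM. Against other cells, E60 gave 741 and 497 with no minimum, 91 and 30 at 100 CPM and 504 and 285 without subclusters 1 and 4 and 520 and 463 in subcluster 2 alone, against 270 and 112. E120 gave 2502 and 1888 with no minimum and 246 and 84 at 100 CPM, against 916 and 341. Its lower genes were 213 with a pseudocount of 10 CPM, 571 with equal weight per cell, 553 with 5 rule genes, 534 without called doublets and 770 without the keratin-led subcluster. The higher genes were 59.9% of those called with no minimum and 52.9% in subcluster 2 alone at E60, against 70.7%, and 57.0% with no minimum and 62.2% without the subcluster at E120, against 72.9%. Clustering gave 8 subclusters at resolution 1 for E60 and 1 at 0.25 for E120. Of the values of single genes followed, 1120 between stages stayed within their counting interval and 288 moved out of it with no change of direction. Against other cells 440 stayed and 420 moved at E60, and 661 stayed and 413 moved at E120. Scaling by median of ratios shifted all genes by 0.05 on the log2 scale. No paired analysis was possible because each stage was 1 library. The number of cells limits what can be seen at low levels: 3 counts are 11.8 CPM in the remaining E120 members and 2.99 CPM in those of E60.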
